A study of Mus musculus with 9 samples.

Results

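The joining (J) segments of the mouse T-cell receptor alpha locus, TRAJ, were followed through assembled alpha chains of sorted thymocytes. Every TRAJ name that occurred among TRA chains was a member, and the members were ordered by segment number, which runs down from the 5′ end of the array to the 3′ end. RefSeq (GRCm38.p6) annotates 60 TRAJ segments on chromosome 14, from 54155005 to 54218842, and 43 of them carried at least 1 chain, among 166 variable and joining segments of both receptor chains. All 43 had chains in each of the 3 gates. They were carried by 20522 TRA chains, out of 46531 receptor chains of both kinds.

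Thymocytes came from adult female mice of 2 genotypes, mutant I173A (an isoleucine-to-alanine change in CD3ε, a signalling chain of the T-cell receptor complex) and wild type (WT). Single-positive cells with CD4 and no CD8 (CD4 SP), single-positive cells with CD8 and no CD4 (CD8 SP) and double-positive cells with both coreceptors (DP) were sorted, and each gate was loaded as 1 library that mixed the genotypes, marked by antibody hashtag 6 for I173A and hashtag 4 for WT. A cell was given a genotype when the count of that hashtag reached 10 and was 4-fold or more above every other hashtag. The labels do not say how many mice stood behind a hashtag, so each genotype in each gate was treated as 1 sample. No test between genotypes or gates was possible; the 95% intervals given are exact and cover counting error between chains only. Cells of one genotype and gate share a library and possibly a mouse. Intervals and SEs count each chain as independent, although some cells gave 2 alpha chains whose TRAJ segments tended to lie close together. No allowance was made for such pairs.

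Alpha chains are made when a variable (TRAV) segment is joined to a TRAJ segment in DP thymocytes. The locus can be rearranged more than once: a later joining event uses a TRAV further upstream and a TRAJ further downstream and removes the DNA between them. Early rearrangements are therefore known to use 5′ TRAJ segments, and successive ones to move toward the 3′ end, until a receptor is positively selected or the cell dies. A mature CD4 SP or CD8 SP cell carries the joins it held when it was selected. For description the array was divided by number into a 5′ tier (61 to 41, 13 segments with chains), a middle tier (40 to 21, 17 segments) and a 3′ tier (20 to 1, 13 segments).

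The segments below are the ones the results turn on, printed from the assembled chains as the bases that at least 90% of chains of that segment shared, 5′ to 3′ in the coding direction. Capitals mark the part that lies in the third complementarity-determining region (CDR3), the loop that contacts peptide; lower case marks the start of the framework that follows. Bases trimmed in many chains at the 5′ end are missing. TRAJ58, TRAJ57 and TRAJ56 are shown as the most 5′ segments with chains.
TRAJ58: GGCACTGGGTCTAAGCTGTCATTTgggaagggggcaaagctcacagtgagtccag
TRAJ57: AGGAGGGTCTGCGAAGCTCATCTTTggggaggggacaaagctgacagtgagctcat
TRAJ56: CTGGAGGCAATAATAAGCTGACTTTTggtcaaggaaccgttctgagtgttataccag
TRAJ47, TRAJ45, TRAJ33 and TRAJ30 are shown because they stood lower in CD4 SP than in CD8 SP chains.
TRAJ47: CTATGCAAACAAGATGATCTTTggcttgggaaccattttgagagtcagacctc
TRAJ45: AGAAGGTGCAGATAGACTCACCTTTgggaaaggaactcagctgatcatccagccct
TRAJ33: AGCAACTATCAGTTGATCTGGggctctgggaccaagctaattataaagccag
TRAJ30: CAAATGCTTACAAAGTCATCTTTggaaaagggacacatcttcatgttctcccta
TRAJ42, TRAJ31 and TRAJ22 held the highest shares of DP, CD4 SP and CD8 SP chains, and TRAJ18 is the joining segment of the invariant natural killer T (NKT) cell receptor.
TRAJ42: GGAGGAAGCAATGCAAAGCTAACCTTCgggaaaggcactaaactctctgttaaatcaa
TRAJ31: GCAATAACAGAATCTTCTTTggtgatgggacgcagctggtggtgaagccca
TRAJ22: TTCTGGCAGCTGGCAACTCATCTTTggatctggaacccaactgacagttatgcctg
TRAJ18: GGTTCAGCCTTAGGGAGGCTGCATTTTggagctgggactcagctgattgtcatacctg
In GRCm38.p6, TRAJ58 lies at chr14:54157280-54157342, TRAJ57 at chr14:54158507-54158569 and TRAJ56 at chr14:54159263-54159325. TRAJ47 lies at chr14:54171802-54171856, TRAJ45 at chr14:54172831-54172890, TRAJ33 at chr14:54185358-54185414 and TRAJ30 at chr14:54189866-54189924. TRAJ42 lies at chr14:54175773-54175836, TRAJ31 at chr14:54187895-54187951, TRAJ22 at chr14:54197248-54197307 and TRAJ18 at chr14:54200777-54200842. RefSeq lists each of them as a J segment, upstream of the constant gene Trac. The CDR3 part kept in the chains ranged from 20 bases in TRAJ31 to 27 bases in TRAJ42 and TRAJ18 among these, and it ended in TGG in TRAJ33 where the others end in TTT or TTC.

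Of the 20522 TRA chains, 13059 came from cells called I173A or WT. CD4 SP had 2705 I173A and 3186 WT chains, CD8 SP had 2685 and 2677, and DP had 1048 and 758. A TRA chain was found in 88.4% of I173A and 88.7% of WT CD4 SP cells, in 81.7% and 77.4% of CD8 SP cells, and in 34.8% and 27.3% of DP cells, with a median of 4 UMIs per chain in DP and 7 to 9 in the SP gates. The gates carried their markers. The CD4 SP genes Zbtb7b and Cd40lg summed to 234 CPM in I173A and 256 CPM in WT CD4 SP cells, against 4.22 CPM or less in the other gates. The CD8 SP genes Nkg7 and Runx3 summed to 785 CPM in I173A and 600 CPM in WT CD8 SP cells. Their sum was 74.2 and 77.7 CPM in CD4 SP cells and 13.6 and 10.8 CPM in DP cells. Runx3 alone was less confined to its gate, at 49.1 and 46.3 CPM in CD4 SP against 114 and 84.6 CPM in CD8 SP cells. Genes of rearranging DP cells (Rag1, Rag2, Dntt, Arpp21) summed to 4090 CPM in I173A and 3837 CPM in WT DP cells; in the CD8 SP gate they summed to 112 CPM in I173A and 357 CPM in WT cells. B cell genes (3 genes) stood between 0 and 3.23 CPM and myeloid genes (3 genes) between 0.566 and 10.0 CPM in every gate and genotype. Cycling cells, with at least 3 UMIs summed over 12 cell-cycle genes, were 2.64% of I173A and 2.88% of WT CD4 SP cells, 10.6% and 19.0% of CD8 SP cells, and 11.2% and 21.2% of DP cells. Between gates, 142 barcodes with a TRA chain recurred, and 0 of them had the same CDR3 sequence in both gates.

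The 17 annotated segments without a chain in any gate were TRAJ61, TRAJ60, TRAJ59, TRAJ55, TRAJ54, TRAJ51, TRAJ46, TRAJ41, TRAJ36, TRAJ29, TRAJ25, TRAJ20, TRAJ19, TRAJ14, TRAJ8, TRAJ3 and TRAJ1. RefSeq lists 9 of them as pseudogenes and 8 as J segments, and lists 0 of the 43 segments with chains as a pseudogene. The list of segments that the authors' assembly could name was not used here. The 17 also had 0 UMIs summed over the RNA matrices of I173A and WT cells, in which all 60 are listed as genes.

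Within one gate the 43 segments were used unequally. In CD4 SP the lowest, median and highest share was 0.296%, 2.03% and 6.54% of I173A chains, and 0.220%, 2.13% and 6.12% of WT chains; equal use would give 2.33%. TRAJ31 was highest in CD4 SP in both genotypes, TRAJ22 in CD8 SP (7.08% of I173A and 6.50% of WT chains), and TRAJ42 in DP (5.44% and 4.88%). The 5 highest segments together made up 24.7% of I173A and 24.6% of WT CD4 SP chains, 25.3% and 25.1% of CD8 SP chains, and 20.4% and 21.2% of DP chains. In WT DP the highest were TRAJ42, TRAJ31 (4.49%), TRAJ37 (4.35%), TRAJ40 (3.83%), and TRAJ57 and TRAJ32 at 3.69% each, with intervals that overlap. The lowest were TRAJ35 (2 chains, 0.264%), TRAJ24 (3 chains, 0.396%), TRAJ47 and TRAJ11 (4 chains each, 0.528%) and TRAJ28 (8 chains, 1.06%). TRAJ35 was also low elsewhere, with 8 I173A and 7 WT chains among CD4 SP and 12 I173A and 15 WT chains among CD8 SP.

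**Figure D1:**
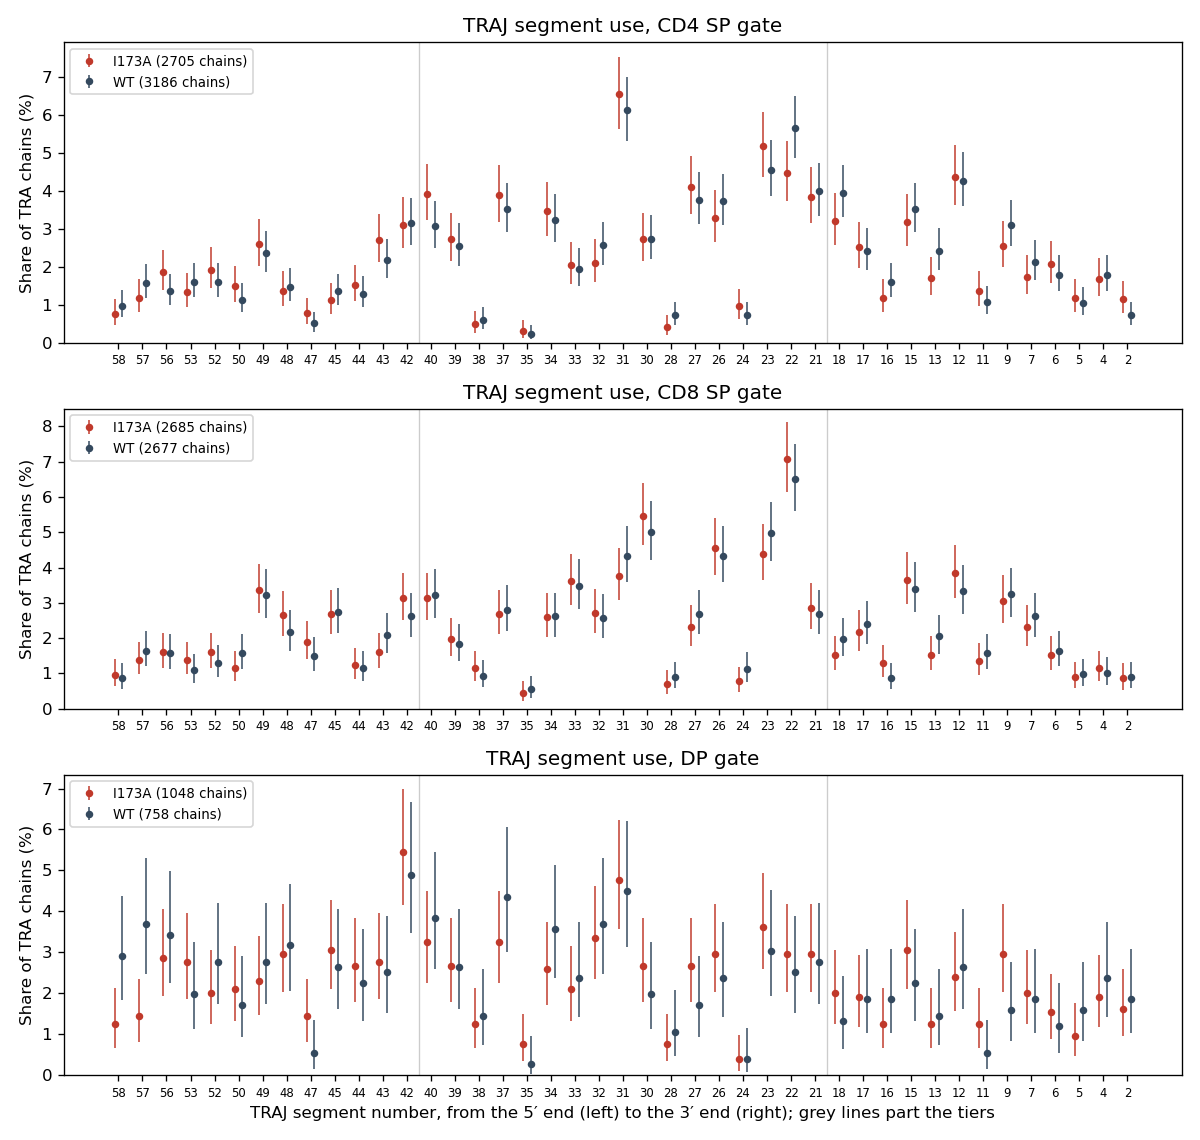
Share of TRA chains (%, y axis) carried by each of the 43 TRAJ segments, ordered from the 5′ end to the 3′ end of the array (x axis), in CD4 SP, CD8 SP and DP chains of I173A (red) and WT (dark) cells. Points are shares and bars exact 95% intervals for counting error; the SP profiles have their highest points in the middle of the array (TRAJ31 at 6.54% of I173A and 6.12% of WT CD4 SP chains), while DP chains reach further to the left.

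The array was read further toward its 3′ end in both SP gates than in DP. CD4 SP chains had a mean TRAJ number of 28.7 ± 0.272 in I173A and 28.1 ± 0.249 in WT (SE over chains). The mean of CD8 SP chains was 29.5 ± 0.273 in I173A and 29.1 ± 0.273 in WT. DP chains had higher means, 31.6 ± 0.466 in I173A and 33.1 ± 0.570 in WT. The 5′ tier held 21.7% of I173A CD4 SP chains and 24.6% of I173A CD8 SP chains, against 33.0% of I173A DP chains. For WT it held 20.5% of CD4 SP chains and 23.5% of CD8 SP chains, against 35.2% of DP chains. As a ratio of CD4 SP over DP, 5′ tier use was 0.656 (0.574 to 0.752) in I173A and 0.582 (0.504 to 0.673) in WT. The ratio of CD8 SP over DP was 0.746 (0.654 to 0.852) in I173A and 0.667 (0.577 to 0.773) in WT.

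Both SP gates used the middle tier more than DP did. The middle tier held 50.5% of CD4 SP, 50.2% of CD8 SP and 42.9% of DP chains in I173A, and 49.7%, 50.5% and 42.5% in WT. The 3′ tier ratio of CD4 SP over DP was 1.16 (1.00 to 1.34) in I173A and 1.34 (1.13 to 1.58) in WT, while that of CD8 SP over DP was 1.05 (0.903 to 1.21) and 1.16 (0.983 to 1.39), intervals that include 1. Summed from the 5′ end without tiers, the gap between CD4 SP and DP was widest at TRAJ32. At that segment 40.6% of I173A CD4 SP chains had been reached against 52.2% of I173A DP chains, and 38.2% of WT CD4 SP chains against 57.4% of WT DP chains. For CD8 SP against DP the gap was widest at TRAJ31, 46.7% against 57.0% in I173A and 45.8% against 61.9% in WT. Both gaps were larger in WT; the difference between genotypes was not tested.

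**Figure D2:**
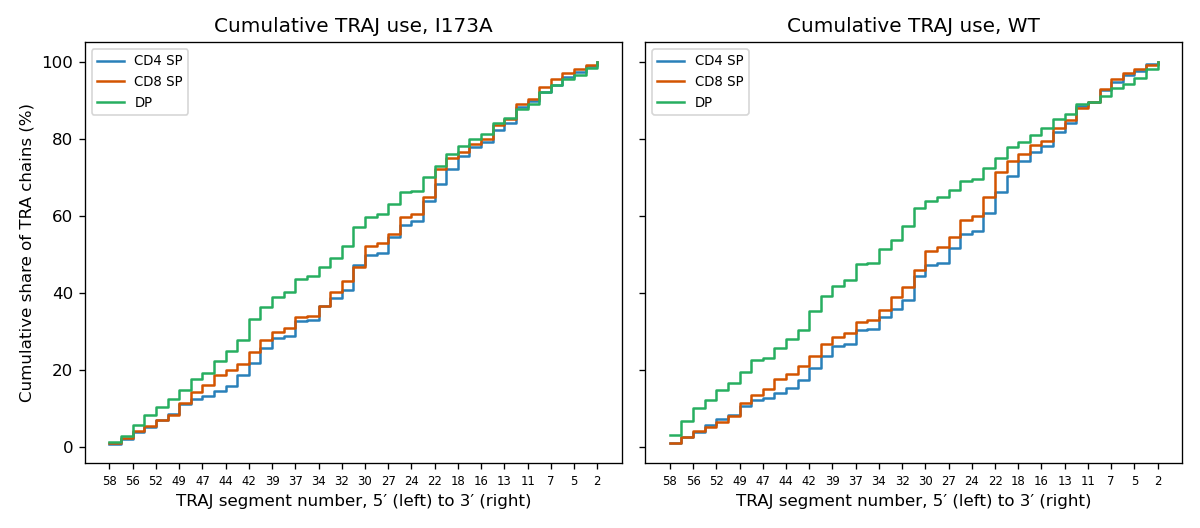
Cumulative share of TRA chains (%, y axis) summed from the 5′ end of the TRAJ array to its 3′ end (x axis), for CD4 SP, CD8 SP and DP chains of I173A (left) and WT (right) cells. The DP line lies above both SP lines through the middle of the array, by up to 11.6 percentage points over CD4 SP in I173A and 19.2 in WT.

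Segment by segment, ratios of shares were read for segments with at least 30 chains in both samples together, and a segment was called at a ratio of 1.5 or more, or 1/1.5 or less. With CD4 SP over DP, 14 of 40 TRAJ segments were called in I173A (5 higher, 9 lower) and 22 of 40 in WT (10 higher, 12 lower). The interval left out 1 for 9 of the 14 and 13 of the 22. WT had fewer DP chains than I173A (758 against 1048), and the part of this in the larger WT number was not tested. Over all TRAV, TRAJ, TRBV and TRBJ segments, 17.7% were called higher and 17.7% lower in I173A, and 21.3% higher and 22.8% lower in WT. The lower calls lay toward the 5′ end: 12 of 13 5′ tier segments in I173A and 12 of 12 in WT had a ratio below 1, with median ratios of 0.596 and 0.576. The 3′ tier had 8 of 13 segments above 1 in I173A and 9 of 13 in WT.

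Lower in CD4 SP than in DP in both genotypes were TRAJ58, TRAJ56, TRAJ48, TRAJ45, TRAJ44 and TRAJ42, all in the 5′ tier. TRAJ45 was carried by 30 CD4 SP and 32 DP chains in I173A, a share of 1.11% against 3.05% and a ratio of 0.363 (0.213 to 0.617). In WT, TRAJ45 was carried by 43 CD4 SP and 20 DP chains, 1.35% against 2.64%, a ratio of 0.512 (0.294 to 0.918). TRAJ56 stood at 1.85% of CD4 SP against 2.86% of DP chains in I173A (ratio 0.646, 0.403 to 1.05), and at 1.35% against 3.43% in WT (0.393, 0.236 to 0.667). The interval for TRAJ56 thus included 1 in I173A and did not in WT. The 3 other WT segments among the 6 lowest were TRAJ2 (0.391, 0.193 to 0.821), TRAJ38 (0.411, 0.186 to 0.956) and TRAJ57 (0.425, 0.262 to 0.701), with TRAJ58 at 0.335 (0.188 to 0.608) the lowest. The TRAJ58 call was lost in both genotypes without cycling cells, defined by cell-cycle genes as above, at 0.672 (0.307 to 1.55) in I173A and 0.938 (0.404 to 2.53) in WT. TRAJ48 stood at 0.462 (0.279 to 0.771) in I173A and 0.466 (0.279 to 0.797) in WT.

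Higher in CD4 SP than in DP in both genotypes were TRAJ27, TRAJ22, TRAJ18 and TRAJ12. TRAJ22 had 121 CD4 SP and 31 DP chains in I173A, 4.47% against 2.96%, a ratio of 1.51 (1.01 to 2.32). That ratio was inside 1.5-fold in 3 of 8 alternatives and reached 1.28 with contigs of at least 3 UMIs. In WT, TRAJ22 had 180 CD4 SP and 19 DP chains, 5.65% against 2.51%, a ratio of 2.25 (1.40 to 3.83). TRAJ27 stood at a ratio of 1.54 (1.01 to 2.42) in I173A and 2.20 (1.24 to 4.24) in WT, and TRAJ12 at 1.83 (1.18 to 2.94) and 1.62 (1.01 to 2.73). TRAJ18 stood at 1.61 (0.988 to 2.72) in I173A and 3.00 (1.58 to 6.40) in WT. The WT list went on with TRAJ11 (2.02, 0.721 to 7.84), which had 4 DP chains, and with TRAJ9 (1.96, 1.07 to 3.93) and TRAJ13 (1.67, 0.881 to 3.47). In the 38 segments read in both genotypes, 0 were called in opposite directions.

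With CD8 SP over DP, 13 of 40 segments were called in I173A (5 higher, 8 lower) and 24 of 42 in WT (11 higher, 13 lower). Of these calls, 11 of the 13 and 15 of the 24 had an interval that left out 1. The share over all receptor segments was 14.0% higher and 20.7% lower in I173A, and 20.2% higher and 23.5% lower in WT. TRAJ22 and TRAJ30 stood out at the upper end in both genotypes. TRAJ22 had 190 CD8 SP and 31 DP chains in I173A, 7.08% against 2.96%, a ratio of 2.39 (1.63 to 3.62), and 174 CD8 SP and 19 DP chains in WT, 6.50% against 2.51%, a ratio of 2.59 (1.61 to 4.41). TRAJ30 had 147 CD8 SP and 28 DP chains in I173A, a ratio of 2.05 (1.36 to 3.19), and 134 CD8 SP and 15 DP chains in WT, a ratio of 2.53 (1.48 to 4.65). TRAJ26, at 1.54 (1.03 to 2.36) in I173A and 1.82 (1.11 to 3.19) in WT, was the remaining segment called higher in both genotypes. At the upper end in WT, TRAJ11 (2.97), TRAJ47 (2.83) and TRAJ24 (2.83) rest on 3 or 4 DP chains each, and TRAJ9 stood at 2.05 (1.12 to 4.13).

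Lower in CD8 SP than in DP in both genotypes were TRAJ56, TRAJ53, TRAJ44 and TRAJ42 of the 5′ tier, and TRAJ4 and TRAJ2 at the other end. TRAJ44 stood at 1.23% of CD8 SP against 2.67% of DP chains in I173A (ratio 0.460, 0.270 to 0.790) and at 1.16% against 2.24% in WT (0.516, 0.277 to 0.995). TRAJ4 stood at 0.605 (0.334 to 1.12) in I173A and 0.425 (0.225 to 0.819) in WT. TRAJ56 stood at 0.559 (0.343 to 0.924) in I173A and 0.457 (0.274 to 0.777) in WT. In WT the 6 lowest further held TRAJ58 (0.296, 0.158 to 0.557), TRAJ57 (0.445, 0.271 to 0.742), TRAJ16 (0.465, 0.229 to 0.978) and TRAJ52 (0.472, 0.267 to 0.853). Of the 22 WT DP chains with TRAJ58, 15 came from cycling cells, and without cycling cells its ratio was 0.852 (0.349 to 2.37), inside 1.5-fold.

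**Figure D3:**
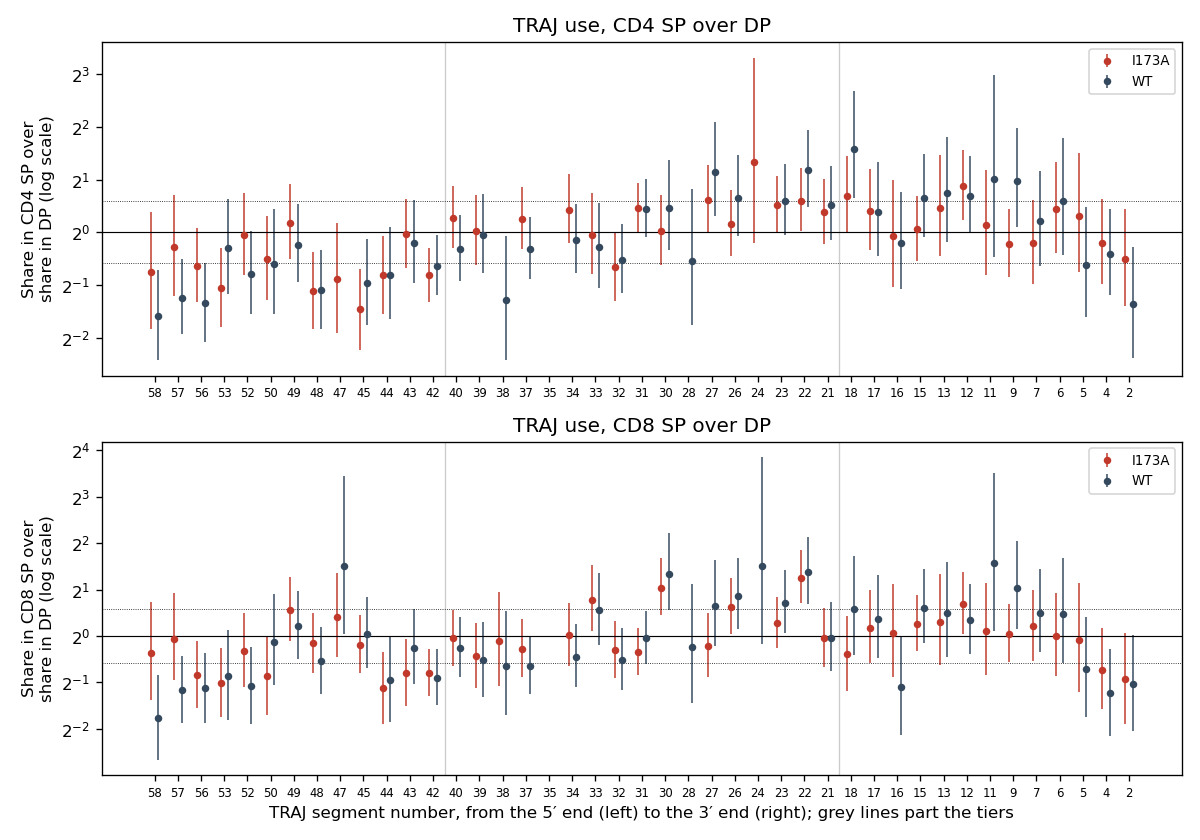
Share of each TRAJ segment in CD4 SP (top) and CD8 SP (bottom) chains over its share in DP chains (log scale), along the array from 5′ to 3′, in I173A (red) and WT (dark). Bars are exact 95% intervals for counting error, dotted lines mark 1.5-fold, and segments with under 30 chains are not drawn; in CD4 SP the points of the 5′ tier lie below 1 for 12 of 13 segments in I173A and 12 of 12 in WT.

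CD4 SP chains used the 5′ tier somewhat less than CD8 SP chains, at a ratio of 0.880 (0.786 to 0.985) in I173A and 0.872 (0.781 to 0.975) in WT. With CD4 SP over CD8 SP, 12 of 42 segments were called in I173A (4 higher, 8 lower) and 9 of 42 in WT (3 higher, 6 lower). Intervals left out 1 for 11 of the 12 and 7 of the 9. Over all receptor segments the shares were 17.4% higher and 18.8% lower in I173A, and 16.2% higher and 19.1% lower in WT, so TRAJ segments were not called more often than receptor segments as a whole. TRAJ47, TRAJ45, TRAJ38, TRAJ33 and TRAJ30 were lower in both genotypes. TRAJ47 had 21 CD4 SP and 51 CD8 SP chains in I173A, 0.776% against 1.90%, a ratio of 0.409 (0.234 to 0.692). In WT, TRAJ47 had 16 and 40 chains, 0.502% against 1.49%, a ratio of 0.336 (0.176 to 0.614). The ratio for TRAJ45 was 0.414 (0.261 to 0.641) in I173A and 0.495 (0.331 to 0.731) in WT, and for TRAJ30 0.500 (0.373 to 0.665) and 0.546 (0.412 to 0.720). TRAJ31 stood in the other direction in both genotypes, with 6.54% of CD4 SP and 3.76% of CD8 SP chains in I173A (ratio 1.74, 1.35 to 2.24), and 6.12% and 4.33% in WT (1.41, 1.12 to 1.79, inside 1.5-fold).

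TRAJ33, the joining segment of the mucosal-associated invariant T (MAIT) cell receptor, had 55 CD4 SP and 97 CD8 SP chains in I173A, 2.03% against 3.61%, a ratio of 0.563 (0.397 to 0.791). In WT it had 62 and 93 chains, 1.95% against 3.47%, a ratio of 0.560 (0.400 to 0.781). The invariant MAIT chain joins TRAV1 to TRAJ33; between 0 and 2 of the TRAJ33 chains in any gate and genotype had TRAV1, so the difference was carried by chains with other TRAV segments. TRAJ18 was called higher in CD4 SP in both genotypes, with 87 CD4 SP and 41 CD8 SP chains in I173A (3.22% against 1.53%, ratio 2.11, 1.44 to 3.13) and 126 and 53 chains in WT (3.95% against 1.98%, ratio 2.00, 1.44 to 2.81). Of the CD4 SP chains, 37 in I173A and 45 in WT joined TRAV11 to TRAJ18, the invariant NKT pairing, 1.37% and 1.41% of all CD4 SP chains. CD8 SP had 0 such chains in both genotypes, which allows a share of up to 0.137% in I173A and 0.138% in WT. Without cells holding that pairing, TRAJ18 stood at 1.23 in I173A and 1.30 in WT for CD4 SP over CD8 SP, inside 1.5-fold, and at 0.980 (0.573 to 1.74) in I173A and 1.96 in WT for CD4 SP over DP.

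Between genotypes the SP tier shares were close. The mean TRAJ number was higher in I173A than in WT by 0.614 (SE 0.368 over chains) in CD4 SP and 0.371 (SE 0.386) in CD8 SP. Summed from the 5′ end, the CD4 SP gap was widest at TRAJ23. There 63.8% (62.0 to 65.6) of I173A and 60.5% (58.8 to 62.2) of WT chains had been reached, intervals that overlap. This CD4 SP difference ran toward the 5′ end in I173A, opposite to that in DP below. For I173A over WT the 5′ tier ratio was 1.06 (0.944 to 1.18) in CD4 SP and 1.05 (0.938 to 1.17) in CD8 SP, and the 3′ tier ratio was 0.935 (0.848 to 1.03) and 0.968 (0.870 to 1.08). In CD4 SP, 3 of 42 segments passed 1.5-fold. TRAJ47 (21 I173A and 16 WT chains, ratio 1.55, 0.769 to 3.17) and TRAJ2 (31 and 23 chains, 1.59, 0.896 to 2.85) were higher, and TRAJ28 (11 and 23 chains, 0.563, 0.248 to 1.20) was lower. In CD8 SP, 1 of 42 passed, TRAJ16, with 35 I173A and 23 WT chains and a ratio of 1.52 (0.872 to 2.69). All 4 intervals include 1. Of all receptor segments, 3.62% were called higher and 4.35% lower in CD4 SP, and 5.22% higher and 3.73% lower in CD8 SP.

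In DP, I173A chains lay further toward the 3′ end than WT chains, by an amount near the counting error. The mean TRAJ number was 1.45 lower in I173A than in WT (difference -1.45, SE 0.736 over chains). The whole 5′ tier did not differ beyond counting error, at 33.0% of I173A and 35.2% of WT chains, a ratio of 0.937 (0.797 to 1.10). Summed from the 5′ end without tiers, the I173A share was below the WT share at 37 of 43 segments. Such sums carry over from segment to segment, so this count is not a set of separate readings. In CD8 SP the I173A sum was above the WT sum at 38 of 43 segments, with a widest gap of 1.44 percentage points. For DP the gap was widest at TRAJ32 in the middle tier, with 52.2% (49.1 to 55.3) of I173A and 57.4% (53.8 to 60.9) of WT chains reached. The difference was -5.19 percentage points, with intervals that overlap. At the end of the 5′ tier it was -2.21 points. Of 33 segments with enough chains, 3 were called higher and 2 lower, against 7.95% higher and 3.41% lower over all receptor segments. The 2 lower ones were the most 5′ segments with chains and had the 2 intervals that leave out 1. The rest of the 5′ tier did not follow them. Of its 12 segments read, 6 had a ratio above 1 and 6 below, with a median ratio of 1.02. TRAJ57 had 15 I173A and 28 WT chains, 1.43% against 3.69%, a ratio of 0.387 (0.192 to 0.751). TRAJ58 had 13 I173A and 22 WT chains, 1.24% against 2.90%, a ratio of 0.427 (0.198 to 0.887). TRAJ9 (2.96% of I173A and 1.58% of WT chains, 1.87, 0.933 to 4.00), TRAJ27 (1.56, 0.781 to 3.28) and TRAJ18 (1.52, 0.685 to 3.61) were the higher ones. No adjustment for the number of segments read was made. Without cycling cells the mean TRAJ numbers of DP chains were closer, at 31.2 in I173A and 32.2 in WT.

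Together TRAJ58, TRAJ57 and TRAJ56, a sum chosen after their values were seen, made up 5.53% (4.23 to 7.10) of I173A and 10.0% (7.98 to 12.4) of WT DP chains. TRAJ58 and TRAJ57 had been called lower in the same chains, so the sum is not separate support. In the SP gates the same sum was 3.77% of I173A and 3.89% of WT CD4 SP chains, and 3.95% and 4.07% of CD8 SP chains. The ratio of I173A over WT was 0.552 (0.385 to 0.787) in DP, 0.969 (0.738 to 1.27) in CD4 SP and 0.970 (0.735 to 1.28) in CD8 SP. Without cycling cells the DP sum was 49 of 972 I173A chains and 47 of 676 WT chains, 5.04% against 6.95%, a ratio of 0.725 (0.476 to 1.11) that includes 1. With all DP cells, TRAJ56 alone stood at 2.86% (1.94 to 4.06) of I173A and 3.43% (2.25 to 4.99) of WT chains. TRAJ53, the next segment with chains, went the other way, at 2.77% (1.86 to 3.95) against 1.98% (1.11 to 3.24).

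Cycling DP cells used the 5′ end more than other DP cells did, a split of the cells made after seeing that the TRAJ58 value depended on it. In I173A the 5′ tier held 39 of 76 chains of cycling cells, 51.3% (39.6 to 63.0), against 307 of 972 chains of other cells, 31.6% (28.7 to 34.6). In WT it held 46 of 82 chains of cycling cells, 56.1% (44.7 to 67.0), against 221 of 676, 32.7% (29.2 to 36.4). The intervals of cycling and other cells did not overlap in either genotype, but TRAJ58, which prompted the split, lies in this tier. It gave 2 of the 39 I173A and 15 of the 46 WT chains of cycling cells in the tier, so the WT gap partly restates TRAJ58. In the SP gates the 5′ tier share of cycling cells was 18.4% of I173A and 14.4% of WT CD4 SP chains and 24.3% and 25.3% of CD8 SP chains, and that of other cells was 21.8%, 20.7%, 24.6% and 23.3% in the same order, with intervals that overlap.

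Most TRAJ58 chains of WT DP cells, and few of those of I173A DP cells, came from cycling cells. Cycling cells carried 2 of 76 I173A chains with TRAJ58, 2.63% (0.320 to 9.18), and 15 of 82 WT chains, 18.3% (10.6 to 28.4). Those 15 WT chains came from 15 cells, had 15 different CDR3 sequences and used 10 TRAV segments. In other DP cells TRAJ58 stood at 11 of 972 I173A chains, 1.13%, and at 7 of 676 WT chains, 1.04%, so that its ratio of I173A over WT without cycling cells was 1.09 (0.387 to 3.32). TRAJ57 did not depend on them in this way. It stood at 4 of 76 I173A and 9 of 82 WT chains of cycling cells (5.26% and 11.0%), and at 11 of 972 and 19 of 676 chains of other cells (1.13% and 2.81%). Chains of cycling DP cells came from cells with a median of 3554.5 RNA UMIs in I173A and 5230.5 in WT, against 2937 and 3005 in other DP cells; the part of depth and of the larger cycling share of WT DP cells in these differences was not tested.

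**Figure D4:**
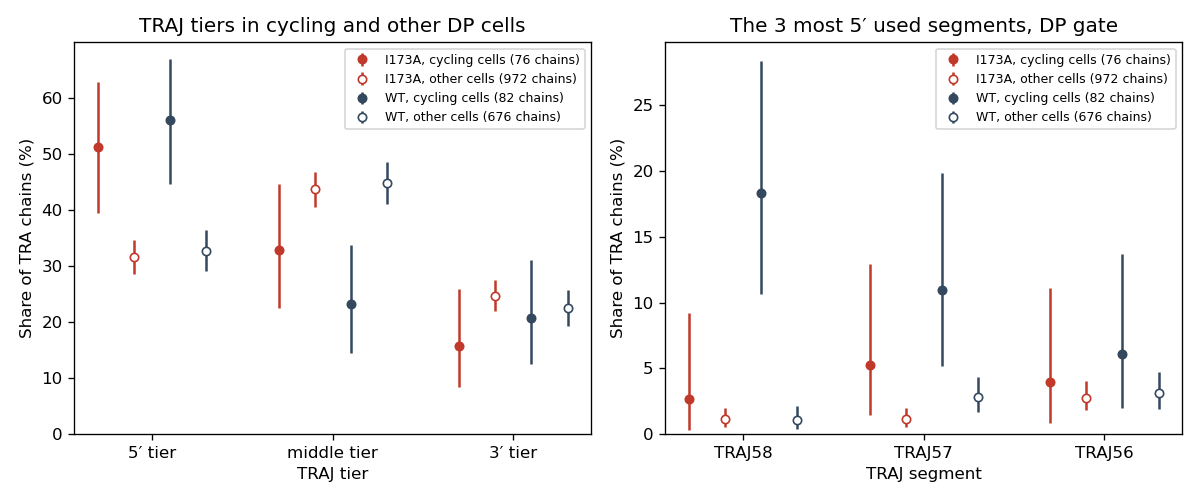
Share of TRA chains (%, y axis) in the 3 TRAJ tiers (left) and at TRAJ58, TRAJ57 and TRAJ56 (right), in cycling (filled) and other (open) DP cells of I173A (red) and WT (dark). Points are shares and bars exact 95% intervals for counting error; the 5′ tier points of cycling cells, at 51.3% in I173A and 56.1% in WT, lie above those of other cells, and TRAJ58 stands at 18.3% in cycling WT cells.

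Chains with a TRAV near the array carried 5′ TRAJ segments more often than chains with a TRAV further upstream, in every gate and genotype, out to 1200 kb. All 89 TRAV segments in the chains could be placed in RefSeq, at 279 to 1727 kb upstream of the first TRAJ. Less than 300 kb away lay a single TRAV segment with chains, TRAV21-DV12. It was joined to a 5′ tier TRAJ in 85.2% of I173A and 79.5% of WT CD4 SP chains. The share was 83.3% and 85.7% of its CD8 SP chains and 82.8% and 84.0% of its DP chains, on 14 to 39 chains each. From 300 to 600 kb the 5′ tier share was 49.3% of I173A and 48.9% of WT CD4 SP chains, 53.3% and 51.3% of CD8 SP chains, and 53.8% and 55.9% of DP chains. The SP gates parted from DP further upstream. From 600 to 900 kb the 5′ tier took 15.1% (13.0 to 17.5) of I173A and 14.4% (12.4 to 16.6) of WT CD4 SP chains and 19.4% and 18.6% of CD8 SP chains, against 27.9% (23.2 to 32.9) and 30.2% (24.4 to 36.5) of DP chains. From 900 to 1200 kb the tier took 7.58% of I173A and 8.09% of WT CD4 SP chains, 11.2% and 8.36% of CD8 SP chains, and 15.0% and 21.3% of DP chains. Beyond 1200 kb there was no further decline in common to the groups. The 5′ tier share there was 11.9% (9.58 to 14.5) of I173A and 8.84% (6.99 to 11.0) of WT CD4 SP chains, 10.7% and 8.33% of CD8 SP chains, and 45 of 250 I173A and 31 of 182 WT DP chains. The mean TRAJ number beyond 1200 kb was above that from 900 to 1200 kb in 5 of 6 samples, for example 23.2 against 21.1 in WT CD4 SP chains and 23.8 against 23.3 in I173A CD8 SP chains; in WT DP chains it was 26.1 against 26.2.

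By family, the J-proximal families TRAV17 to TRAV21 had a 5′ tier TRAJ in 77.9% to 88.6% of chains across gates and genotypes, and the J-distal families TRAV1 and TRAV2 in 0% to 6.45%. The J-distal shares rest on 9 chains (WT DP) to 41 chains (I173A CD8 SP), and the interval for WT DP was 0% to 33.6%. The J-proximal families themselves made up 2.26% of I173A and 2.95% of WT CD4 SP chains, 2.53% and 2.61% of CD8 SP chains, and 4.58% and 6.46% of DP chains. TRAV21-DV12, the TRAV nearest the array and the only segment of the shortest distance range above, had a mean TRAJ number of 50.0 ± 9.86 over 54 DP chains of both genotypes (SD). TRAV7D-2, 1471 kb away, had a mean of 22.5 ± 12.3 over 39. Many TRAV segments have near-identical copies in the duplicated part of the locus, with names ending in D or N, and the assembly may have assigned their chains to either copy.

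**Figure D5:**
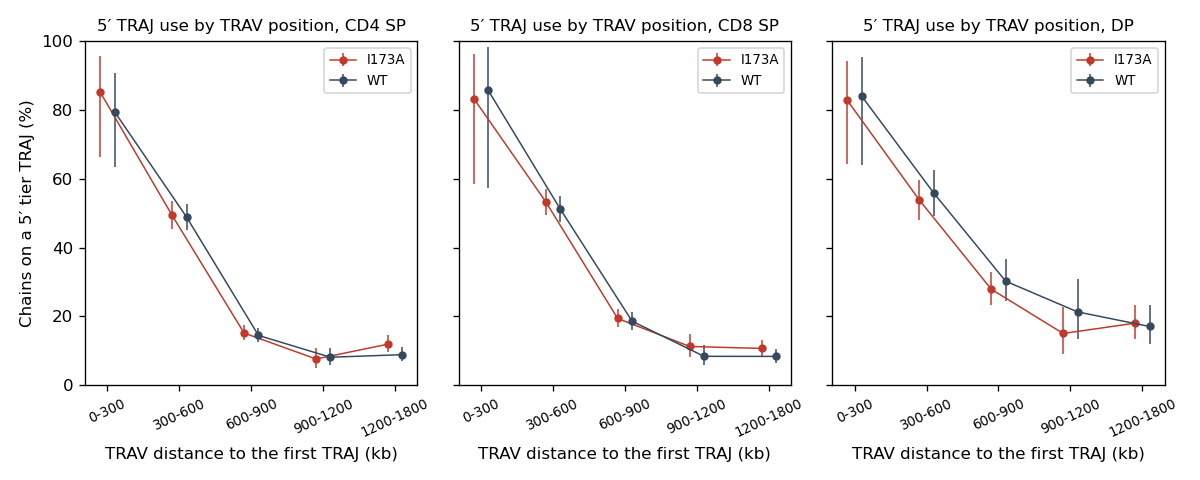
Share of chains that used a 5′ tier TRAJ (%, y axis) by the distance of the TRAV segment to the first TRAJ (kb, x axis), in CD4 SP, CD8 SP and DP chains of I173A (red) and WT (dark); bars are exact 95% intervals for counting error. The share is 79.5% or more below 300 kb in every panel, where TRAV21-DV12 is the only segment, and lies between 7.58% and 21.3% beyond 900 kb.

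Both alpha alleles can be rearranged, and cells with 2 TRA chains had their TRAJ segments close together. Such cells numbered 330 in I173A and 415 in WT among CD4 SP, 313 and 320 among CD8 SP, and 98 and 57 among DP. The 2 segments lay within 10 numbers of each other in 66.7% of I173A and 68.9% of WT CD4 SP cells, in 69.0% and 66.2% of CD8 SP cells, and in 60.2% and 66.7% of DP cells. For chains taken from different cells of the same gate and genotype the share was 35.3% to 39.3%. The TRAJ numbers of the pair had a Pearson r between 0.578 and 0.663, given as a description over cells of 1 sample. Pairs with both segments in the 5′ tier numbered 40 in I173A and 48 in WT CD4 SP cells, and pairs with 1 segment in the 5′ tier and the other in the 3′ tier numbered 8 and 9. A droplet with 2 cells would add pairs of unrelated chains.

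Chains built on different TRAJ segments had CDR3 loops of different length. The mean length ran from 12.3 residues for TRAJ31 to 15.4 for TRAJ2 over all gates, and across the 43 segments it had a Pearson r of 0.938 with the CDR3 bases kept from the segment, a relation that shares its source because the same chains gave both. The 5′ tier had the longest mean in each gate and genotype, 14.2 ± 1.48 residues in I173A and 14.3 ± 1.35 in WT DP chains (SD), against 13.6 ± 1.45 and 13.6 ± 1.69 in the middle tier. All chains together averaged 13.5 residues in both genotypes in CD4 SP, 13.7 in both in CD8 SP, and 13.8 in I173A and 13.9 in WT DP chains. Across segments the mean length had an r of -0.004 in I173A and 0.051 in WT with the log2 ratio of CD4 SP over CD8 SP.

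In the RNA matrices, which count reads on annotated genes, Traj genes had few UMIs, so that TRAJ use could be read from the assembled chains and not from these counts. Summed over the 60 genes they had 349 UMIs (20.8 CPM) in I173A and 419 (20.4 CPM) in WT CD4 SP cells, 222 (12.6 CPM) and 219 (9.70 CPM) in CD8 SP cells, and 227 (26.2 CPM) and 209 (20.5 CPM) in DP cells. Traj31 had 30 UMIs in both genotypes in CD4 SP, the highest of the genes there. Traj58 had 1 UMI in I173A and 2 in WT DP cells.

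DP cells with a single TRA chain were then compared by its tier, 3′ over 5′. There were 208 3′ tier and 288 5′ tier cells in I173A, and 149 and 229 in WT. The 3′ tier cells had fewer RNA UMIs (a median of 2524 against 3479.5 in I173A and 2642 against 3646 in WT) and fewer cycling cells (4.81% against 10.1% in I173A and 10.1% against 17.9% in WT). Of genes with at least 100 UMIs in both tiers together, 8.26% were past 1.5-fold in I173A and 12.8% in WT, with a median log2 ratio of 0.08 and 0.05. Among 11 genes of V(D)J recombination and the DP stage, 10 had enough UMIs and 1 was called: Endou, an RNA-binding endonuclease abundant in DP thymocytes, was lower. Endou stood at 554 CPM in 3′ tier and 832 CPM in 5′ tier cells of I173A, a ratio of 0.666 (0.585 to 0.757), and at 479 and 712 CPM in WT, a ratio of 0.673 (0.575 to 0.786) just inside 1.5-fold; without cycling cells it was past 1.5-fold in both genotypes, at 0.655 (0.570 to 0.751) in I173A and 0.518 (0.429 to 0.621) in WT. Rag1, a subunit of the recombinase, was not called. It stood at 1128 CPM in 3′ tier and 882 CPM in 5′ tier cells of I173A (1.28, 1.16 to 1.41) and at 1162 and 794 CPM in WT (1.46, 1.31 to 1.64). Without cycling cells Rag1 stood at 1.24 (1.12 to 1.38) in I173A and 1.22 (1.07 to 1.38) in WT. Rag2 stood at 1.02 (0.829 to 1.24) in I173A and 1.17 (0.948 to 1.44) in WT. Of the 10 genes, 4 were above 1 in I173A and 7 in WT, and 4 and 3 without cycling cells. The list's median log2 ratio was -0.03 in I173A and 0.17 in WT, and without cycling cells it was -0.05 in both. Ptcra of this list was under the UMI minimum and was not called. It stood at 0.422 (0.229 to 0.735) in I173A and 0.869 (0.500 to 1.46) in WT. Without cycling cells it stood at 0.371 (0.187 to 0.682) and 0.377 (0.178 to 0.730).

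Among 9 genes that report T-cell receptor signalling, 7 had enough UMIs, and 2 were called higher in I173A and 1 in WT, with a median log2 ratio of 0.35 and 0.04. Nr4a1, an immediate early transcription factor, stood at 189 CPM in 3′ tier and 78.4 CPM in 5′ tier cells of I173A, a ratio of 2.41 (1.80 to 3.24), and at 100 and 76.8 CPM in WT, a ratio of 1.31 (0.882 to 1.92). Cd69, an activation marker of positively selected thymocytes, stood at 1.85 (1.35 to 2.53) in I173A and 1.03 (0.708 to 1.46) in WT. Egr1, another immediate early factor, stood at 341 and 284 CPM in I173A (1.20, 0.999 to 1.44) and at 370 and 181 CPM in WT (2.04, 1.64 to 2.53). Of the 7 genes, 5 were above 1 in I173A and 4 in WT. Cd5 was below 1 in both, at 0.850 (0.737 to 0.979) in I173A and 0.754 (0.617 to 0.917) in WT. Gata3 was also below 1, at 0.808 (0.591 to 1.09) in I173A and 0.850 (0.552 to 1.28) in WT. Egr2 was under the UMI minimum, with 44 UMIs in 3′ tier and 24 in 5′ tier cells of I173A and 35 and 14 in WT. Of 7 survival and maturation genes, 3 had enough UMIs and 0 were called in either genotype, with a median log2 ratio of 0.26 in I173A and -0.18 in WT. Without cycling cells 1 of 2 was called in WT, Bcl2l1, an anti-apoptotic gene, at a ratio of 0.658 (0.451 to 0.944); in I173A it stood at 0.750 (0.543 to 1.02). Ccr7, Il7r, Klf2 and S1pr1 of the survival and maturation list were under the UMI minimum and were not called. Ccr7 had 43 UMIs in 3′ tier and 12 in 5′ tier cells of WT, a ratio of 8.30 (4.30 to 17.3). In I173A it had 17 in each tier, 1.85 (0.887 to 3.85). Il7r had 17 and 12 UMIs in WT, a ratio of 3.28 (1.48 to 7.53). In I173A it had 12 and 6, 3.70 with a lower limit of 1.28. Klf2 was below 1, at 0.579 (0.231 to 1.28) in WT and 0.462 (0.112 to 1.43) in I173A. Intervals cover UMI counting only, and a few cells can hold many UMIs of an immediate early gene.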

How the data were processed

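Thymocytes of 3 sorted gates were profiled by 10x 5′ single-cell RNA, receptor and hashtag sequencing. Per the submitters' processing notes, the authors used Cell Ranger 6.0.1 with GRCm38 (mm10); the matrix headers name software version 3.1.0. The deposited matrices hold UMI counts per gene and hashtag, and the deposited contig tables hold UMI and read counts per assembled chain; every contig row was marked as a cell, high confidence, full length and productive. TRA chains were counted per segment, gate and genotype (python 3.11.15, pandas 2.3.3, scipy 1.17.1). Shares have exact Clopper-Pearson intervals, ratios exact conditional Poisson intervals, and CPM are the authors' deposited UMI counts summed over cells and scaled by the total. The share ratios and their intervals were tested on simulated data. No cell was removed beyond the hashtag call, and no doublet caller was run; 1209 TRA chains had no single hashtag, 188 were not in the matrix, and 6066 carried hashtag 5, to which the labels give no genotype. Positions are from RefSeq, in which all 43 segments matched by symbol. The segments, gene lists and rules were chosen with earlier results of these data known. Named with values were the 5 highest and 5 lowest segments in WT DP, every segment past 1.5-fold between genotypes, up to 6 highest and 6 lowest of each SP gate over DP in WT, TRAJ18 and TRAJ33, and segments without a chain; further names are those called in both genotypes or in a sum, chosen after their values were seen. A planned look at recombination signal sequences was not run, since no genome sequence was used here. Alternatives changed the chain, cell and hashtag filters and the thresholds. One gene of the planned lists is not reported here.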

Additional observations from a re-analysis of the deposited data

How the results depend on the processing

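Mean TRAJ numbers and 5′ and 3′ tier shares stayed within their main 95% intervals under all 8 alternatives of chain, hashtag and cell filters in each gate and genotype. The 5′ tier share ran from 31.6% to 33.8% in I173A and 32.7% to 36.5% in WT DP chains. For I173A over WT, the number of segments past 1.5-fold (CD4 SP 3, CD8 SP 1, DP 5) was 0 in each gate with at least 100 chains, where 0 segments were left in DP. Called at 5/4-fold, the CD4 SP number was 13, the CD8 SP number 9 and the DP number 11. It was 2 in CD8 SP with cells of exactly 1 TRA chain and 2 with contigs of at least 3 UMIs, 0 in CD8 SP without barcodes found in more than 1 gate, and 2 in DP without cycling cells. For gates, at least 100 chains gave 5 for CD4 SP over DP, 6 for CD8 SP over DP in I173A, and 8, 7 and 4 for CD4 SP over DP, CD8 SP over DP and CD4 SP over CD8 SP in WT. Called at 5/4-fold there were 23, 20 and 27 for the same 3 comparisons in I173A and 20 for CD4 SP over CD8 SP in WT. The largest cumulative difference over all segments was also read in place of the 5′ tier difference, I173A minus WT. It was 3.26 points against 1.17 in CD4 SP, 1.44 against 1.12 in CD8 SP and -5.19 against -2.21 in DP. The end of the 5′ tier is among the points this maximum is taken over, so it could not be smaller in size. Genes past 1.5-fold between DP tiers numbered 289 in I173A, and 45 at 300 UMIs; in WT they numbered 388, and 165 without cycling cells and 80 at 300 UMIs. Of 74 named ratios past 1.5-fold, 19 came inside it under at least 1 alternative, most often without cycling cells (11 ratios), and 2 crossed 1: TRAJ58 for I173A over WT in DP without cycling cells (1.09) and TRAJ18 for CD4 SP over DP in I173A without cells with a TRAV11-TRAJ18 chain (0.980). TRAJ57 for I173A over WT in DP ran from 0.363 to 0.419. The sum of TRAJ58, TRAJ57 and TRAJ56 for I173A over WT in DP, an alternative set chosen after seeing the data, ran from 0.549 to 0.725, the highest without cycling cells. TRAJ31 for CD4 SP over CD8 SP in WT passed 1.5-fold, at 1.81, with cells of exactly 1 TRA chain. The causes were not tested beyond what each filter removes. No paired analysis was possible because each gate and genotype is 1 sample. DP depth, 758 and 1048 chains, limits every comparison with DP.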

Other observations

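Cells marked by hashtag 5, to which the labels give no genotype, had 2798 CD4 SP, 2412 CD8 SP and 856 DP chains. The mean TRAJ number was 29.3 for CD4 SP chains, 29.8 for CD8 SP chains and 31.4 for DP chains. The 5′ tier held 22.8% of the CD4 SP, 26.3% of the CD8 SP and 31.4% of the DP chains. In their DP cells TRAJ58 stood at 6 of 87 chains of cycling cells, 6.90% (2.57 to 14.4), and at 10 of 769 chains of other cells, 1.30%. The 5′ tier held 42.5% (32.0 to 53.6) of chains of cycling and 30.2% (26.9 to 33.5) of chains of other DP cells with hashtag 5, intervals that overlap.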
